A study of Mus musculus with 32 samples.

Results

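Matrix metalloproteinases, ADAMTS proteases and the tissue inhibitors of metalloproteinases (TIMPs) were measured in mouse liver by 91 probes for 46 genes, out of 56605 probes that were not controls. They were taken by name: every probe whose gene name began with Mmp and a digit, or was Adamts with a number, or was Timp1 to Timp4. The set held 23 metalloproteinase genes on 33 probes, 19 ADAMTS genes on 49 probes and 4 TIMP genes on 9 probes. Of the 46 genes, 32 passed the filter on dim probes and were tested: 14 metalloproteinases, 14 ADAMTS proteases and all 4 TIMPs.

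Livers came from 32 male C57BL/6J mice of a first filial generation, 8 in each of 4 groups that crossed diet with E171. E171 is food-grade titanium dioxide, a white pigment, given in the pellets at a target of 10 mg per kg body weight per day. The groups were normal diet without E171 (ND_CONT), normal diet with E171 (ND_E171), Western diet without E171 (WD_CONT) and Western diet with E171 (WD_E171). The mice with E171 had dams that ate it from before mating, and they stayed on it themselves; control mice and their dams had none. The Western diet, which the treatment protocol of the labels calls high fat, was fed for 16 weeks, and exposure ended at 21 weeks of age. The labels do not give the litters, so litter mates within a group cannot be identified and the p-values measure the spread between these 8 mice per group. Every liver had 1 array, and the 4 slides were balanced, with 2 mice from each group on a slide. Between 32164 and 37261 probes per array were well above background, the array with the fewest being replicate 8 of WD_E171, and no probe was saturated. As a check of the tissue, the mean level of 5 hepatocyte transcripts (Alb, Apoa1, Ahsg, Ttr and Fgb) lay between 9.12 and 10.07 in every mouse, on the log2 scale explained next.

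Metalloproteinases are zinc enzymes that cut extracellular matrix: collagenases open fibrillar collagen, gelatinases degrade the opened chains, and matrilysin and macrophage elastase have broad substrates. ADAMTS proteases are secreted enzymes that carry thrombospondin repeats and process procollagens, proteoglycans and von Willebrand factor. TIMPs bind the active site of metalloproteinases, and Timp3 also inhibits some ADAMTS proteases. In injured liver these enzymes and inhibitors are made mainly by macrophages, stellate cells and bile duct epithelium and take part in the build-up and removal of scar.

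Levels are given throughout as the log2 of the probe's signal minus the log2 of its array's 75th percentile, so 0 means a signal equal to that percentile. A level compares mice for 1 probe and does not rank different genes. A difference is in log2 units and is called when limma's Benjamini-Hochberg adjusted p, over 23656 genes, is under 0.05. Whole liver was sampled, so fewer cells of a type and less RNA per cell cannot be told apart.

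In the main processing, the 4 genes with the largest diet differences in control mice, Mmp12, Mmp13, Mmp7 and Mmp27, lay close together. This ranking depended on how background was handled. With another background correction, normexp with an offset of 50, Adamts4, which lies on another chromosome, rose by 1.67 in controls. That was more than Mmp7 (1.41), Mmp13 (0.94) and Mmp27 (0.79), while Mmp12 rose by 2.23. On chromosome 9 the probes of 10 metalloproteinase genes fell within 417 kb (build mm9, chr9:7282762-7699535), in the order Mmp13, Mmp12, Mmp1b, Mmp3, Mmp1a, Mmp10, Mmp8, Mmp27, Mmp20 and Mmp7. This cluster holds genes long known to carry a site for AP-1, the Fos and Jun dimer, close to their start. RefSeq windows of 250 bases before to 50 after the gene start (build GRCm38.p6) were available for 32 of the 46 genes, as 35 windows. The letters TGAGTCA, or TGACTCA which is the same motif read on the other strand, were found in a window of 7 genes, all of them in this cluster: Mmp13, Mmp12, Mmp1b, Mmp3, Mmp1a, Mmp10 and Mmp7. No other motif was searched. Of all 32851 RefSeq windows of this length, 5.20% held the motif. The 80 bases before the start are shown for 4 of these genes, 3 that were higher on the Western diet and Mmp3, which was too dim to test, with the motif in capitals:
Mmp13, chr9:7272434-7272513, plus strand: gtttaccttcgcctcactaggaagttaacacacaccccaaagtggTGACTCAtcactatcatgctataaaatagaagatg
Mmp12, chr9:7347294-7347373, plus strand: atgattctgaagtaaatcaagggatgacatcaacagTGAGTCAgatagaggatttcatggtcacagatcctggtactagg
Mmp3, chr9:7445742-7445821, plus strand: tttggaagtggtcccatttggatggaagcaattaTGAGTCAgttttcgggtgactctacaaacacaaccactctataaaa
Mmp7, chr9:7692010-7692089, plus strand: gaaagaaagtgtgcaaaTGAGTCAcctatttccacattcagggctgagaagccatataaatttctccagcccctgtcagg
The motif began 35 bases before the start in Mmp13, 44 in Mmp12, 46 in Mmp3 and 63 in Mmp7. Mmp12 and Mmp7 each had a second listed start whose window did not hold these letters. Mmp27 and Mmp8, which lie in the same cluster, had windows without the motif. A match describes the sequence only.

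On the Western diet most of the tested proteases and inhibitors were higher. Without E171, 21 of the 32 tested genes rose, 2 fell and 9 were not called. Over all genes tested 47.3% were called, 18.5% as higher and 28.7% as lower, so the members had a larger share of rises and a smaller share of falls than all genes. The median difference was 0.79 over the 32 genes and -0.10 over all genes. In mice with E171, 20 rose, 3 fell and 9 were not called, against 53.2% of all genes called, 22.2% as higher and 31% as lower; the medians were 0.85 and -0.10. In the authors' deposited values, scaled in another way, 54.4% of all calls in control mice were higher, against 39.2% here, and of 34 members tested 21 were higher and 2 lower. Some genes, Mmp12, Mmp13, Mmp24 and Adamts16, passed the filter only through Western-diet mice, so their place in these counts was set in part by the filter.

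**Figure D1:**
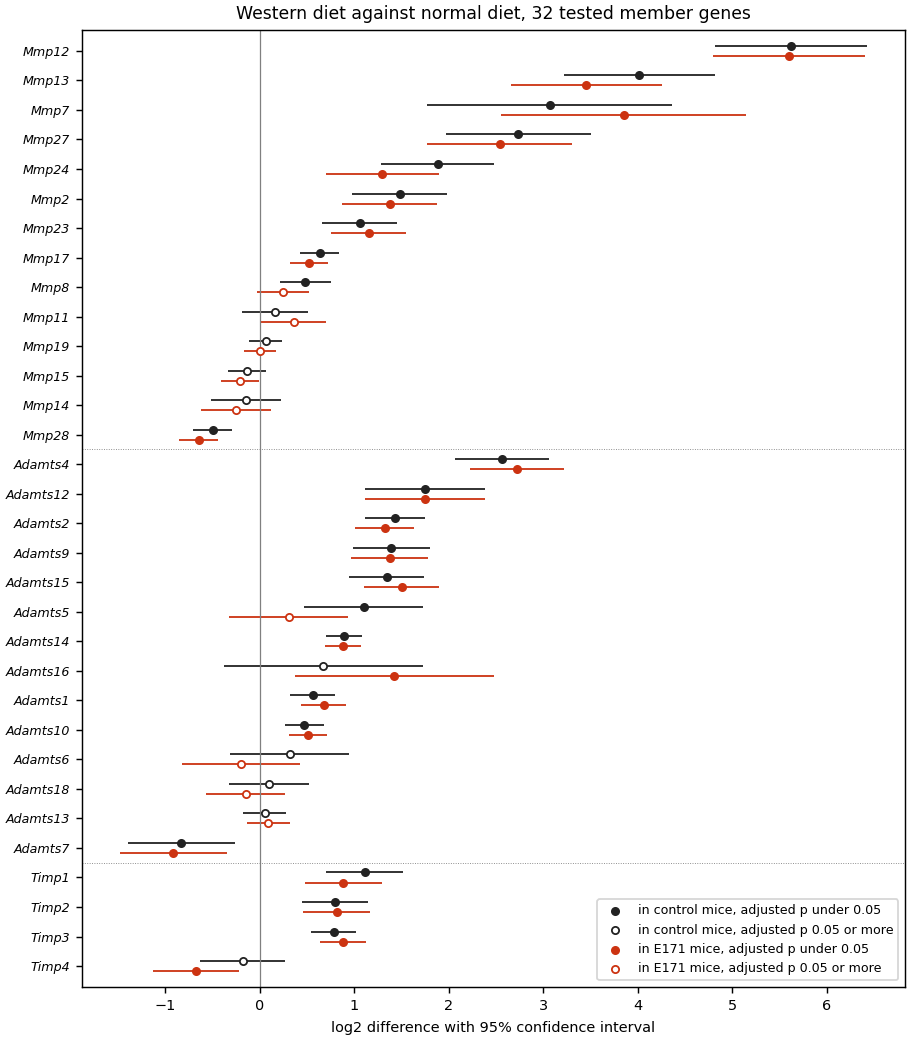
Difference of Western against normal diet for the 32 tested genes, in log2 units on the horizontal axis, in control mice (black) and in mice with E171 (red), 8 against 8 arrays each; bars are 95% confidence intervals from limma, and filled points have an adjusted p under 0.05. The genes are grouped as metalloproteinases, ADAMTS proteases and TIMPs, with Mmp12 farthest right at 5.62 and Adamts7 farthest left at -0.91.

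Called differences with a fitted rise of at least 2-fold numbered 14 of the 32 genes in controls (5.45% of all genes) and 13 in mice with E171 (6.59% of all genes), and no member had a fitted fall of that size. These counts include dim genes whose rise of that size was not secure: Mmp24 in both, for which only smaller bounds can be given, Adamts5 in controls and Adamts16 with E171, whose calls another background correction ended, as described with each gene. Other rises stayed called under all 9 alternatives to the processing but fell below 1 log2 unit in at least 1 of them. The lowest values in controls were 0.94 for Mmp13, 0.79 for Mmp27, 0.91 for Mmp2 and 0.69 for Mmp23. They were 0.47 for Adamts12, 0.57 for Adamts15, 0.95 for Adamts9 and 0.96 for Adamts2. With E171 the same genes fell below 1 in at least 1 alternative. The diets were fully apart for 12 of the 32 genes in controls (9.97% of all genes), with every Western-diet mouse above every normal-diet mouse in all 12 (4.6% of all genes); in mice with E171 they were apart for 17 (18% of all genes), upward in 16 (9.14% of all genes). The reverse was seen for no member in controls (5.37% of all genes) and for Mmp28 in mice with E171 (8.89% of all genes).

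The largest rise was in Mmp12, macrophage elastase (probe at mm9 chr9:7358559-7358618). In ND_CONT its lowest, median and highest levels were -7.35, -5.63 and -4.53, and in WD_CONT they were -2.32, 0.42 and 0.76. In ND_E171 the levels were -6.69, -5.82 and -5.45, and in WD_E171 they were -1.47, -0.32 and 0.45. The diets did not overlap in either pair of groups. The difference was 5.62 in controls (SE 0.39, adjusted p = 2.49e-12), with the probe well above background on 2 of the 8 normal-diet arrays. In mice with E171 no normal-diet array was well above background. There the bound from the main processing put the level at least 27.8-fold higher on the Western diet (adjusted p = 2.07e-12). All 3 Mmp12 probes rose, by 3.73 to 5.62 in controls. With another background correction, normexp with an offset of 50, the gene rose by 2.23 in controls and 1.99 with E171. The latter is below the bound, which is 4.79 in log2 units, so the bound holds for the main processing only.

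Mmp13, the main collagenase of the mouse (chr9:7282762-7282821), had the next largest rise in controls in the main processing. Its levels ran from -7.33 through a median of -6.15 to -4.80 in ND_CONT and from -3.79 through -2.01 to -1.26 in WD_CONT. With E171 they ran from -6.73 through -5.85 to -4.97 on the normal diet and from -3.18 through -2.55 to -1.34 on the Western diet. Here too all Western-diet mice lay above all normal-diet mice. The probe was well above background on only 2 and 1 of 8 normal-diet arrays, without and with E171, and on all 16 Western-diet arrays, so the size of the gain rests on normal-diet signals near background. The gain was 4.01 in controls (SE 0.39, adjusted p = 1.96e-09) and 3.45 with E171 (SE 0.39, adjusted p = 2.25e-08). It was 0.94 and 0.79 with normexp correction and 1.97 and 1.67 in the authors' deposited values, called in each. Mmp8, the neutrophil collagenase, rose by 0.48 in controls (adjusted p = 0.00368) and was 0.25 higher with E171 (adjusted p = 0.116); the interaction of diet and E171 was -0.24 (adjusted p = 0.999). Mmp1a and Mmp1b, the other 2 collagenases, were well above background on 0 of 32 arrays.

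Mmp7, matrilysin, an epithelial enzyme made by injured bile ducts (chr9:7699476-7699535), was the most uneven of the strongly raised genes. Levels in ND_CONT were -4.89, -4.01 and -2.72 at the lowest, median and highest mouse. Those in WD_CONT were -3.00, -0.68 and 1.24. With E171 the normal-diet mice spanned -6.72 to -2.62 around a median of -3.48, and the Western-diet mice spanned -2.84 to 1.19 around 0.19. The lowest Western-diet mice reached into the normal-diet range in both pairs. The difference was 3.07 in controls (95% interval 1.77 to 4.36, adjusted p = 0.000223) and 3.85 with E171 (2.56 to 5.14, adjusted p = 9.17e-06). Both probes of the gene rose, by 2.68 and 3.07 in controls.

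Mmp27 (chr9:7581328-7581387), another gene of the cluster, had levels of -6.93, -4.58 and -3.30 in ND_CONT and -2.90, -1.66 and -1.22 in WD_CONT. In ND_E171 they were -5.59, -4.60 and -3.46, and in WD_E171 they were -2.73, -1.83 and -1.53. The diets did not overlap in either pair. The rise was 2.74 in controls (SE 0.38, adjusted p = 7.54e-07) and 2.54 with E171 (SE 0.38, adjusted p = 1.90e-06). The remaining cluster genes were dim: Mmp3, stromelysin 1, was well above background on 1, 0, 4 and 2 of 8 arrays in ND_CONT, ND_E171, WD_CONT and WD_E171, and Mmp10 and Mmp20 on 0 of 32. These were not tested.

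**Figure D2:**
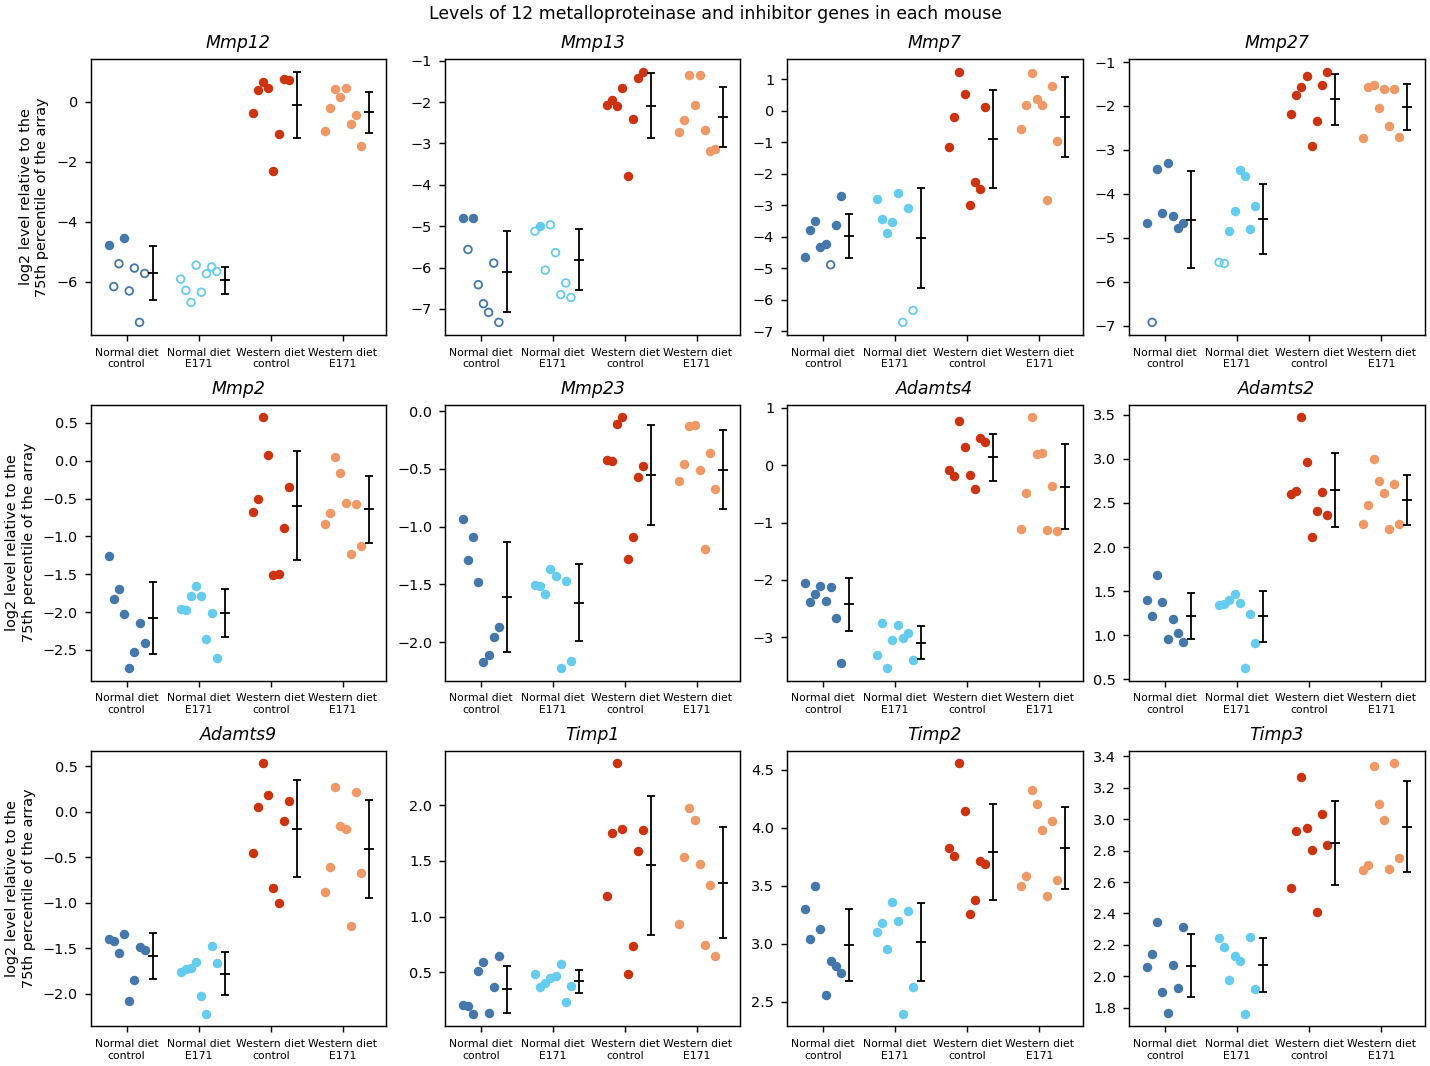
Level of 12 genes in each of the 32 mice, as log2 of the signal relative to the array's 75th percentile, with the 4 groups along each horizontal axis. Circles are mice, open where the probe was not well above background; the black bar marks the group mean with 1 SD on either side (n = 8 per group). Mmp12, Mmp13 and Mmp27 show a gap between the diets, while Mmp7, Mmp2 and Timp1 in control mice show Western-diet mice inside the normal-diet range.

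Among the gelatinases, Mmp2, gelatinase A, a product of stellate cells and fibroblasts (chr8:95376840-95376899), rose. In ND_CONT its levels were -2.74, -2.08 and -1.26, and in WD_CONT they were -1.51, -0.59 and 0.57, so the control groups overlapped. In ND_E171 they were -2.61, -1.96 and -1.66 and in WD_E171 -1.24, -0.63 and 0.05, with no overlap. The difference was 1.48 (SE 0.25) and 1.38 (SE 0.25), at adjusted p = 1.31e-05 and 2.89e-05. Gelatinase B, Mmp9, was too dim to test: its better probe was well above background on 4, 3, 3 and 3 of 8 arrays in ND_CONT, ND_E171, WD_CONT and WD_E171.

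The membrane-type enzymes were mixed. Mmp14, the main cell-surface activator of the Mmp2 proenzyme, was detected in all mice and differed by -0.15 in controls (95% interval -0.52 to 0.23) and by -0.25 with E171 (-0.62 to 0.12), neither called. Mmp15, also membrane-bound, differed by -0.13 and -0.21, neither called. Mmp17, anchored by a lipid tail, rose by 0.63 (adjusted p = 5.81e-06) and 0.52 (adjusted p = 7.09e-05), with no overlap between the diets.

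Mmp24, membrane-type 5 (chr2:155643521-155643580), was close to the detection limit. Its levels were -7.36, -6.48 and -5.27 in ND_CONT, -7.17, -6.32 and -4.55 in ND_E171, -4.80, -4.69 and -3.87 in WD_CONT and -5.65, -4.86 and -4.52 in WD_E171. No normal-diet array was well above background, against 8 of 8 in WD_CONT and 4 of 8 in WD_E171. As bounds in the main processing, it was at least 1.57-fold higher on the Western diet in controls (adjusted p = 5.06e-06). With E171 it was at least 1.14-fold higher (adjusted p = 0.000468). With normexp background correction the call was lost in both, at 0.01 in controls and -0.02 with E171, so the bounds did not hold there. Mmp16 and Mmp25 were not tested, Mmp25 being well above background on 9 of 32 arrays and Mmp16 on 1.

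Of the remaining metalloproteinases, Mmp23 (chr4:155025377-155025436), a short enzyme without the usual hemopexin domain, rose. Its levels were -2.17, -1.67 and -0.94 in ND_CONT and -1.28, -0.45 and -0.05 in WD_CONT, which overlapped. In ND_E171 they were -2.22, -1.51 and -1.37 and in WD_E171 -1.19, -0.48 and -0.12, which did not. The difference was 1.06 (SE 0.19, adjusted p = 5.22e-05) in controls and 1.15 (SE 0.19, adjusted p = 1.28e-05) with E171. Mmp28, epilysin, fell by 0.49 in controls (adjusted p = 0.000202) and by 0.64 with E171 (adjusted p = 4.81e-06). Mmp11, stromelysin 3, differed by 0.16 and 0.36 (adjusted p = 0.076 for the latter), and Mmp19 by 0.06 and 0.00, none called. Mmp21 was well above background on 0 of 32 arrays.

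Adamts4 showed the largest rise of the ADAMTS genes. It encodes aggrecanase 1, which cuts the proteoglycans aggrecan, versican and brevican (chr1:173190709-173190768). In ND_CONT the lowest, median and highest levels were -3.46, -2.31 and -2.05, and in WD_CONT -0.42, 0.12 and 0.76. In ND_E171 they were -3.54, -3.04 and -2.75, and in WD_E171 -1.15, -0.42 and 0.83. The diets were fully apart in both pairs. The rise was 2.56 in controls (SE 0.24, 5.90-fold, adjusted p = 1.16e-09) and 2.72 with E171 (SE 0.24, 6.61-fold, adjusted p = 2.61e-10). Its 3 probes gave 2.47 to 2.56 in controls.

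All 5 tested genes of the aggrecanase and proteoglycanase class rose in control mice, and 4 rose with E171. Adamts9 (chr6:92722729-92722788), a versican-cleaving enzyme, had levels of -2.07, -1.50 and -1.35 in ND_CONT, -2.22, -1.72 and -1.48 in ND_E171, -0.997, -0.02 and 0.54 in WD_CONT and -1.25, -0.39 and 0.27 in WD_E171. It rose by 1.39 (adjusted p = 1.53e-06) and 1.37 (adjusted p = 1.47e-06) with no overlap, and its 4 probes gave 1.03 to 1.39 in controls. Adamts15 (chr9:30707033-30707092) had levels of -3.69, -2.94 and -2.56 in ND_CONT, -3.55, -3.00 and -2.21 in ND_E171, -2.42, -1.54 and -1.08 in WD_CONT and -2.10, -1.41 and -0.68 in WD_E171. Also without overlap, Adamts15 rose by 1.34 (adjusted p = 1.68e-06) and 1.5 (adjusted p = 2.12e-07). Adamts1 rose by 0.56 (adjusted p = 0.000274) and 0.68 (adjusted p = 1.96e-05).

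Adamts5, aggrecanase 2 (chr16:85899450-85899509), was dimmer. Its levels were -6.68, -4.71 and -3.95 in ND_CONT, -4.59, -4.48 and -4.25 in ND_E171, -4.70, -3.94 and -2.61 in WD_CONT and -4.98, -4.04 and -3.59 in WD_E171. The 8 ND_E171 mice lay in a narrow band (SD 0.13), against an SD of 0.94 in ND_CONT, where 5 of 8 arrays were well above background. It rose by 1.1 in controls (SE 0.31, adjusted p = 0.00419) and was 0.31 higher with E171 (adjusted p = 0.408). The interaction was -0.79 (95% interval -1.68 to 0.09, adjusted p = 0.996), so a difference between the diet effects was not shown. The normexp correction ended the call in controls (0.09, adjusted p = 0.339). Adamts8 and Adamts20 of the same class were well above background on 1 of 32 arrays each.

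Enzymes that trim procollagen rose. Adamts2, the procollagen N-proteinase of collagen I (chr11:50617472-50617531), had levels of 0.92, 1.20 and 1.69 in ND_CONT and 2.11, 2.62 and 3.47 in WD_CONT. With E171 they were 0.63, 1.35 and 1.47 on the normal diet and 2.21, 2.55 and 3.00 on the Western diet, so the diets did not overlap. The rise was 2.69-fold (1.43, SE 0.15) and 2.50-fold (1.32, SE 0.15), at adjusted p = 1.32e-08 and 3.87e-08. A second Adamts2 probe gave a smaller rise, 0.50 in controls and 0.36 with E171. Adamts14, with the same activity, rose by 0.89 (adjusted p = 9.52e-09) and 0.88 (adjusted p = 8.54e-09), again with no overlap. Adamts3, the third of this class, was well above background on 0 of 32 arrays.

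The COMP-cleaving enzymes Adamts7 and Adamts12, which act on cartilage oligomeric matrix protein, went opposite ways. Adamts12 (chr15:11278486-11278545) had levels of -4.97, -4.64 and -4.02 in ND_CONT, -4.99, -4.38 and -3.95 in ND_E171, -4.76, -2.44 and -1.80 in WD_CONT and -3.77, -2.69 and -1.87 in WD_E171. In WD_CONT 1 mouse lay inside the normal-diet range, and with E171 the diets did not overlap. It rose by 1.75 in both pairs (SE 0.31, adjusted p = 3.62e-05 and 2.84e-05). Adamts7 fell by 0.83 in controls (SE 0.28, adjusted p = 0.0148) and by 0.91 with E171 (SE 0.28, adjusted p = 0.00654).

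Other ADAMTS genes changed little or were dim. Adamts13, the von Willebrand factor protease that liver stellate cells make, was detected in all mice and differed by 0.05 (95% interval -0.17 to 0.28) and 0.09 (-0.13 to 0.32). Adamts10, which binds fibrillin, rose by 0.47 (adjusted p = 0.000292) and 0.51 (adjusted p = 8.72e-05), and its 5 probes ranged from 0.10 to 0.50 in controls. Adamts6 differed by 0.32 and -0.20 and Adamts18 by 0.10 and -0.15, none called. Adamts16 (chr13:70867148-70867207) had levels of -6.93, -5.52 and -4.67 in ND_CONT, -6.81, -5.40 and -4.59 in ND_E171, -7.38, -4.64 and -3.41 in WD_CONT and -5.00, -4.17 and -2.97 in WD_E171. These groups overlapped widely, and 2, 2, 4 and 6 of 8 arrays were well above background. Adamts16 was 0.67 higher in controls (adjusted p = 0.288) and rose by 1.42 with E171 (adjusted p = 0.0211), a call that the normexp correction ended (0.08, adjusted p = 0.380). Adamts17 was well above background on 3 of 32 arrays and Adamts19 on 0.

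Of the 4 inhibitors, 3 rose along with the proteases. Timp1, a soluble inhibitor produced by activated stellate cells and hepatocytes (chrX:20451675-20451733), had levels of 0.13, 0.29 and 0.65 in ND_CONT and 0.49, 1.67 and 2.38 in WD_CONT, where 1 mouse lay in the normal-diet range. With E171 the levels were 0.23, 0.43 and 0.57 on the normal diet and 0.65, 1.37 and 1.97 on the Western diet, with no overlap. The rise was 2.16-fold (1.11, SE 0.20) and 1.85-fold (0.88, SE 0.20), at adjusted p = 4.06e-05 and 0.000481.

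Timp2, which also takes part in activating Mmp2 at the cell surface (chr11:118163146-118163205), had levels of 2.56, 2.94 and 3.49 in ND_CONT, 2.39, 3.14 and 3.36 in ND_E171, 3.25, 3.73 and 4.56 in WD_CONT and 3.41, 3.78 and 4.33 in WD_E171. It rose by 0.80 (SE 0.17) and 0.81 (SE 0.17), at adjusted p = 0.00035 and 0.000229, with overlap in controls only. Timp3, the matrix-bound member that also inhibits aggrecanases (chr10:85812041-85812100), had levels of 1.77, 2.07 and 2.35 in ND_CONT, 1.76, 2.11 and 2.25 in ND_E171, 2.41, 2.88 and 3.27 in WD_CONT and 2.68, 2.87 and 3.36 in WD_E171. Without overlap in either pair, Timp3 rose by 0.78 (SE 0.12) and 0.88 (SE 0.12), at adjusted p = 2.87e-06 and 3.20e-07.

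Timp4 (chr6:115196120-115196179) did not follow. Its levels were -5.27, -4.72 and -4.33 in ND_CONT, -5.63, -4.77 and -3.32 in ND_E171, -5.41, -4.90 and -4.45 in WD_CONT and -6.27, -5.13 and -5.01 in WD_E171, all groups overlapping, and 7, 5, 6 and 4 of 8 arrays were well above background. The difference was -0.18 in controls (adjusted p = 0.514), and with E171 it fell by 0.67 (SE 0.22, adjusted p = 0.0117). The interaction was -0.49 (adjusted p = 0.999). With the normexp correction the control difference was -0.19 and passed (adjusted p = 0.0467), and with E171 it fell by 0.21 (adjusted p = 0.0307).

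The sizes of the rises depended on how background was handled, more so for dim probes. With normexp correction Mmp27 rose by 0.79 in controls and 0.69 with E171, and Mmp7 by 1.41 and 1.79. Under the same correction Adamts4 rose by 1.67 and 1.53, Adamts12 by 0.47 and 0.46, Adamts15 by 0.57 and 0.68, and Mmp2 by 0.91 and 0.84, all still called. In the authors' deposited values the rise was 3.51 and 3.29 for Mmp12 and 1.59 and 1.39 for Mmp27. The bright genes moved little, Timp1 to 1.03 and 0.79 and Adamts2 to 1.39 and 1.26 with normexp.

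Slides were a possible batch. Within the 4 slides, each comparing 2 with 2 mice, the diet difference kept the pooled sign in every slide for 16 of the 18 genes described in full, in controls and in mice with E171 alike. The exceptions were Adamts16 and Timp4 in controls and Adamts5 and Timp4 with E171. Mmp12 ranged over slides from 4.42 to 6.50 in controls and from 4.98 to 6.56 with E171, and Mmp7 from 0.84 to 5.16 and from 2.26 to 6.64.

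**Figure D3:**
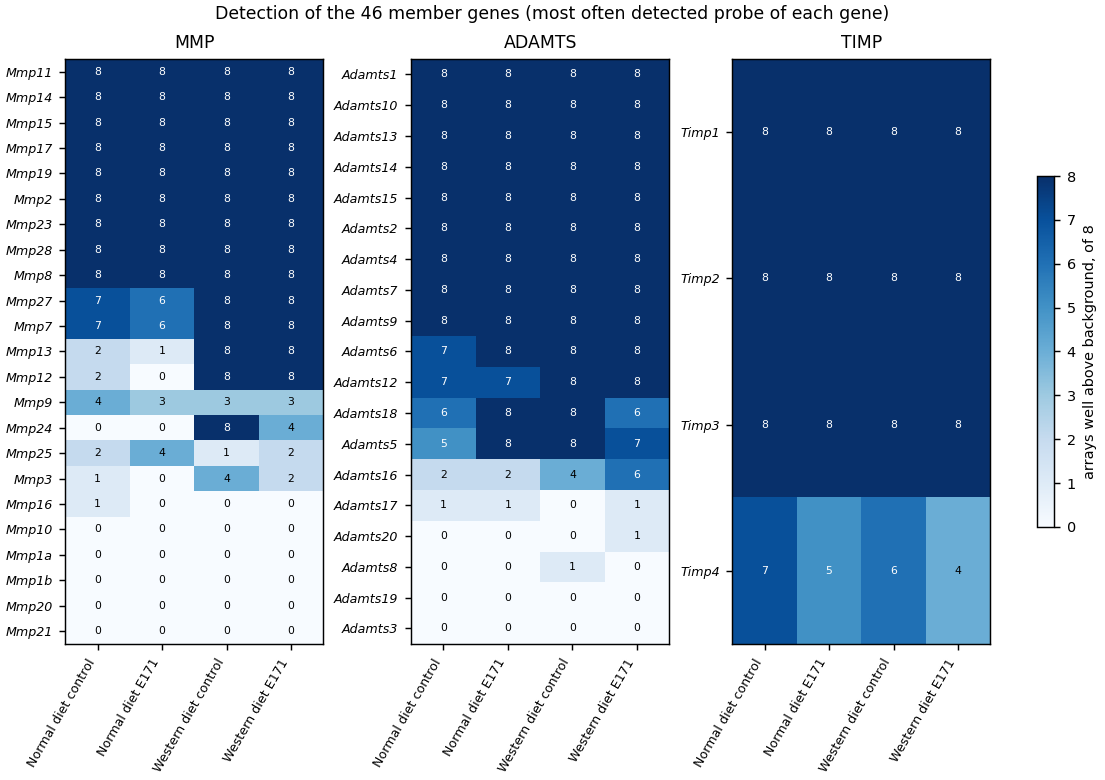
Number of arrays, of 8 in each group, on which the most often detected probe of each of the 46 genes was well above background; rows are genes by family, columns the 4 groups, and darker cells hold more arrays. Mmp12 and Mmp13 go from 2 of 8 in normal-diet controls to 8 of 8 on the Western diet, and 7 genes (Mmp10, Mmp1a, Mmp1b, Mmp20, Mmp21, Adamts19 and Adamts3) are at 0 in every group.

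E171 by itself was not accompanied by a called difference in any of these genes. On the normal diet 0 of 32 were called (0% of all genes called), and at an unadjusted p under 0.05 there was 1 of the 32 and 958 of all genes. On the Western diet 0 of 32 were called (0.38% of all genes, or 90), and 1 of the 32 had an unadjusted p under 0.05, as had 2823 of all genes. E171 and control mice were fully apart for 0 members on the normal diet (0% of all genes) and for 0 on the Western diet, where 0.182% of all genes were apart, 0.139% upward and 0.0423% downward. The interaction of E171 and diet called 0 of 32 genes, with 0 at an unadjusted p under 0.05, and 0 of all genes, with 1222 at an unadjusted p under 0.05.

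The single gene below 0.05 before adjustment was Adamts4 on both diets. It was 0.67 log2 units lower with E171 on the normal diet (difference -0.67, 95% interval -1.17 to -0.18, unadjusted p = 0.00929, adjusted p = 0.999). On the Western diet the difference was -0.51 (interval -1.01 to -0.02, unadjusted p = 0.0436, adjusted p = 0.399). Within slides it ranged from -0.82 to -0.31 and from -0.93 to -0.01, below 0 in all 4 slides on either diet. Both differences fail the correction over all genes, and the groups overlapped.

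The intervals give the precision of the E171 comparison with 8 mice a group. For Timp2 and Timp3 the 95% interval of the E171 difference stayed within -0.33 to 0.37 and -0.23 to 0.24 on the normal diet, and within -0.31 to 0.39 and -0.13 to 0.34 on the Western diet. For Mmp7 it ran from -1.38 to 1.21 and from -0.60 to 1.99, and for Mmp12 on the Western diet from -1.06 to 0.55, so 2-fold changes of these genes lay within the intervals. On the normal diet Mmp12 was well above background on 2 of 8 arrays without and 0 of 8 with E171, and no precision can be given for an E171 difference there. For Adamts16 on the Western diet the difference was 0.93 (interval -0.12 to 1.98, adjusted p = 0.491).

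**Figure D4:**
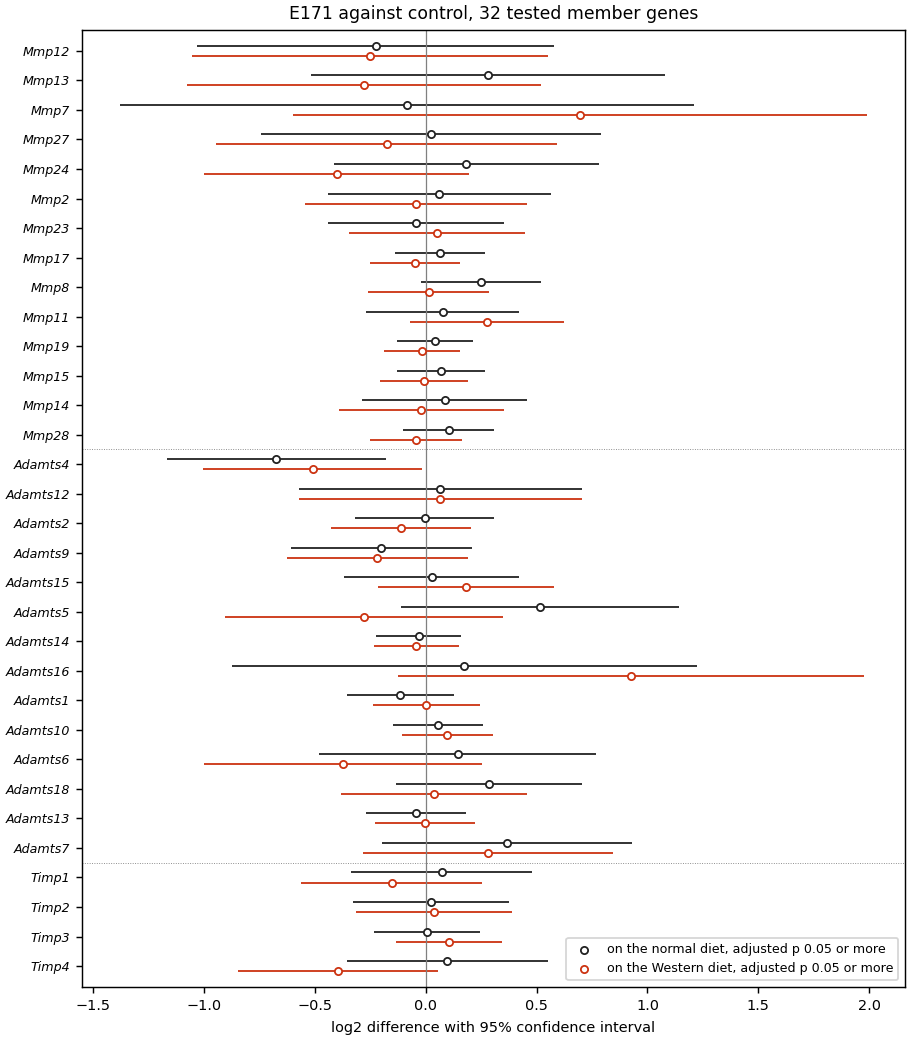
Difference of E171 against control for the same 32 genes, in log2 units, on the normal diet (black) and on the Western diet (red), 8 against 8 arrays each, with 95% confidence intervals from limma. All points are open because no adjusted p is under 0.05; Adamts4 is the gene whose interval lies below 0 on both diets.

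Other genes of the same pathways were read from lists, whose counts stand against the 47.3% of all genes called in controls (18.5% higher, 28.7% lower) and the 53.2% called with E171 (22.2% higher, 31% lower). Of 25 tested matrix substrates, 23 rose and 1 fell with the diet in both pairs, with a median of 1.11 in controls and 1.17 with E171 against -0.10 over all genes in each. The fibrillar collagens led: Col1a1 rose by 3.02 and 3.36, Col3a1 by 2.23 and 2.38 and Col1a2 by 2.15 and 2.39. Fibronectin, Fn1, which hepatocytes secrete into plasma, fell by 0.63 and 0.58. Of 13 tested plasminogen-system genes and other activators, 7 rose and 5 fell in controls, and 6 rose and 5 fell with E171. Those that rose included Plat, tissue plasminogen activator (2.64 and 2.73), and the urokinase receptor Plaur (1.76 and 1.91). The falls were led by plasma proteins of hepatocyte origin: Klkb1, plasma kallikrein, fell by 0.90 and 1.01, Serpinf2, antiplasmin, by 0.85 and 0.97, and Plg, plasminogen, by 0.84 and 1.0.

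The list of 9 tested inhibitors other than TIMPs had 1 rise and 4 falls in controls, and 2 rises and 4 falls with E171. Called were 55.6% and 66.7%, against 47.3% and 53.2% of all genes. Reck, a membrane-anchored inhibitor of several metalloproteinases, fell by 1.32 (adjusted p = 5.15e-08) and 1.15 (adjusted p = 3.59e-07), opposite to Timp1, Timp2 and Timp3. Mug1, a plasma protease trap of the macroglobulin family, fell by 0.76 and 0.79. Spock2 fell by 0.70 in controls (adjusted p = 0.0275) and differed by -0.06 with E171 (adjusted p = 0.863). The 1 called rise of this list in controls was that of Pcolce, an enhancer of procollagen C-proteinase rather than an inhibitor. Pcolce rose by 0.83 and 0.93.

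A further list held AP-1 subunits, other transcription factors and secreted proteins. Of its 14 tested genes, 9 rose and 1 fell in controls, and 11 rose and 1 fell with E171, or 71.4% and 85.7% called. Jun rose by 1.15 and 1.31, and the secreted protein Spp1, osteopontin, by 1.43 and 1.83. Fosl1 was well above background on no normal-diet array and on 6 of 8 and 5 of 8 Western-diet arrays. By the bounds of the main processing it was at least 1.33-fold and at least 1.17-fold higher. The cytokine Tnf fell by 1.57 and 1.37. Of 12 tested ADAM and ADAMTS-like genes, 7 rose and 0 fell in controls, and 7 rose and 1 fell with E171. In all, 58.3% and 66.7% were called, against 47.3% and 53.2% of all genes. Rises made up a larger share than over all genes (18.5% and 22.2%), and falls a smaller one (28.7% and 31%). The rises were led by Adam8, a leukocyte sheddase (2.13 and 2.42), and by the secreted, protease-less relatives Adamtsl1 (1.35 and 0.84) and Adamtsl2 (1.12 and 0.81).

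Markers of several cell types moved with the diet, and their part in the results above was not tested. The counts stand against 18.5% of all genes called higher and 28.7% lower in controls. With E171 these shares were 22.2% and 31%. Of 6 lipid-associated macrophage markers 4 rose and 1 fell in both pairs. Gpnmb was well above background on 0 of 8 arrays in each normal-diet group. By the bounds of the main processing it was at least 51.0-fold and at least 47.6-fold higher. Trem2 rose by 3.98 and 3.96, and Fabp5 fell by 2.49 and 2.46. The mean level of the 6 markers spanned -0.27 to 0.78 in ND_CONT, -0.25 to 0.27 in ND_E171, 1.24 to 3.33 in WD_CONT and 1.89 to 3.21 in WD_E171. Of 8 Kupffer cell and macrophage markers 5 rose and 0 fell in both pairs, with mean levels of 1.27 to 3.22, 1.67 to 2.84, 2.13 to 3.30 and 2.02 to 3.85 in the same order; the resident marker Clec4f differed by 0.10 and 0.11, not called. Of 8 stellate cell and fibroblast markers 6 rose and 0 fell in both pairs, with means of 1.34 to 1.91, 1.34 to 1.92, 1.77 to 2.50 and 2.11 to 2.61. Of 5 cholangiocyte markers 3 rose in controls and 4 with E171, Krt7 by 1.04 and 1.05; the means spanned -2.86 to -1.76, -2.86 to -2.05, -2.54 to -0.34 and -2.54 to -0.72.

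All 5 hepatocyte markers fell, Alb by 0.28 in both pairs and Fgb by 0.77 and 0.97. Of 7 tested neutrophil markers 2 rose in controls, and 4 rose and 1 fell with E171, with means of -2.39 to -0.62 in ND_CONT, -2.21 to -1.25 in ND_E171, -1.32 to -0.98 in WD_CONT and -1.43 to -0.47 in WD_E171. Of 6 T and NK cell markers 1 rose and 2 fell in controls, and 3 rose and 2 fell with E171. Of 4 B cell markers 1 rose in each pair, and of 6 endothelial markers 2 rose and 2 fell in each. With so few markers, the T and NK cell, B cell and endothelial counts are not read as a change of these cells.

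The mice at either end were counted for the 12 genes called with a fitted rise of at least 1 log2 unit in both pairs, among them Mmp24, whose bounds were smaller. The same WD_CONT mouse, replicate 5, had the lowest level for 9, and replicate 3 of that group had the highest for 6. In WD_E171 the lowest mouse varied, replicate 6 for 5 genes and replicate 8 for 4, and replicate 3 was highest for 8. Such counts were not made over all genes, so they are not read as particular to these 12.

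As reference genes, 3 were used: Col1a1 for fibrillar collagen, Gpnmb for lipid-associated macrophages and Krt7 for bile duct cells. The 12 proteases were set against each within WD_CONT and within WD_E171, 72 relations in all, each over 8 mice with exact permutation p-values from all 40320 orders and Benjamini-Hochberg adjustment over the 72. All 72 values of Pearson's r were above 0. The adjusted p was under 0.05 for 9 of 12 genes in each group with Col1a1, for 9 and 6 with Gpnmb, and for 6 and 5 with Krt7. The median r was 0.838 and 0.840 with Col1a1, 0.837 and 0.762 with Gpnmb, and 0.737 and 0.677 with Krt7. Such values were not rare among all genes: 5.18% and 3.46% of genes had an r with Col1a1 at or above that median, 4.56% and 3.74% with Gpnmb, and 7.02% and 6.78% with Krt7.

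For Mmp2 with Col1a1, r was 0.970 and rho 0.976 in WD_CONT (exact permutation p = 0.000397 for each, adjusted 0.00714 and 0.0274), and r was 0.866 and rho 0.905 in WD_E171 (exact p = 0.00503 and 0.00456, adjusted 0.0158 and 0.0274). Without the 2 mice farthest from the median of Col1a1, r was 0.985 and 0.834. For Mmp12 with Gpnmb, r was 0.973 and rho 0.881 in WD_CONT (exact p = 0.000843 and 0.00724, adjusted 0.00804 and 0.0348), and r was 0.939 and rho 0.905 in WD_E171 (exact p = 0.000546 and 0.00456, adjusted 0.00786 and 0.0274). Without the 2 farthest mice these r were 0.894 and 0.930. In WD_E171 the r of Mmp12 with Col1a1 was close to this, 0.927, and 0.961 without 2 mice. For Mmp7 with Krt7, r was 0.931 and rho 0.786 in WD_CONT (exact p = 0.00154 and 0.0279), where the adjusted p was 0.00804 for r and 0.0609 for rho, which did not pass. In WD_E171 r was 0.923 and rho 0.905 (exact p = 0.00174 and 0.00456, adjusted 0.00833 and 0.0274), and without the 2 farthest mice r was 0.856 and 0.699. Mmp7 in WD_CONT had as high an r with Col1a1, 0.943, with rho 0.952 and 0.896 for r without 2 mice. Mmp2 had an r with Krt7 of 0.931 in WD_CONT and 0.836 in WD_E171. With Col1a1, r was 0.976 and 0.738 for Mmp23 and 0.974 and 0.901 for Adamts12, in the same order. Lower values were seen for Mmp12 with Krt7 (0.661 and 0.508) and Mmp7 with Gpnmb (0.755 and 0.476). The differences between such values of r were not tested, so the pairs are not read as particular to a cell type. Several other relations in WD_CONT rested on 2 mice. Without them r with Col1a1 dropped from 0.819 to 0.108 for Mmp12, from 0.774 to 0.180 for Adamts15 and from 0.790 to 0.219 for Mmp27, and r with Gpnmb dropped from 0.910 to 0.362 for Mmp23 and from 0.890 to 0.265 for Adamts12.

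**Figure D5:**
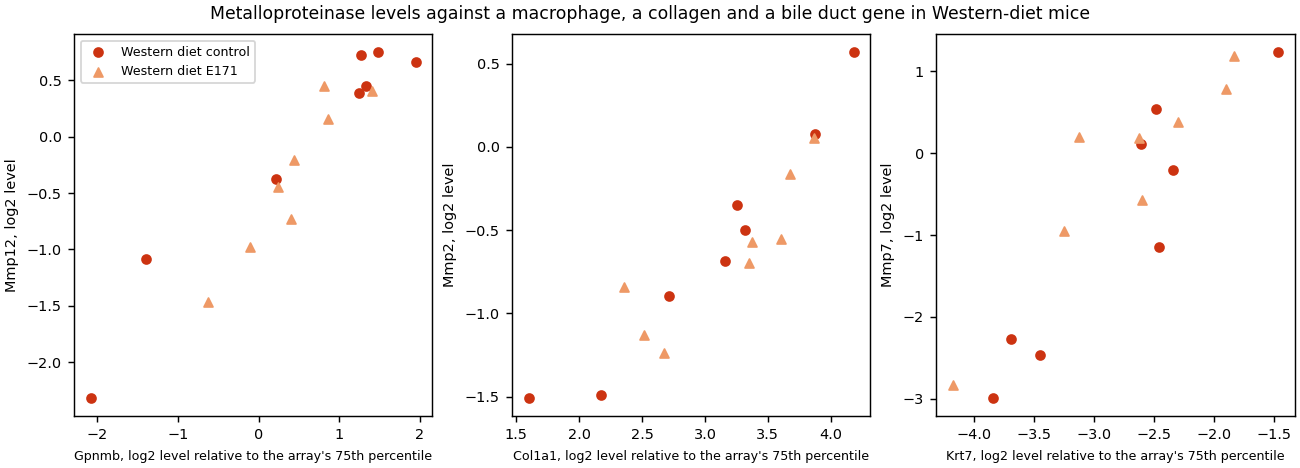
Level of Mmp12 against Gpnmb, Mmp2 against Col1a1 and Mmp7 against Krt7 in the 16 Western-diet mice, all axes in log2 relative to the array's 75th percentile; red circles are WD_CONT and orange triangles WD_E171, 1 point per mouse. In WD_CONT r is 0.973, 0.970 and 0.931 from left to right, and the 2 mice lowest for Gpnmb are also lowest for Mmp12.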

How the data were processed

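Liver RNA of 32 mice was hybridised singly, in one colour, to Agilent arrays. The signal intensities deposited by the authors came from Agilent Feature Extraction 10.10.1.1, per the file headers, with background already subtracted; probe positions are in mm9. From the deposited intensity, outlier spots were dropped, replicate spots averaged, log2 taken and each array's 75th percentile subtracted. A probe was kept when well above background on at least 6 of 8 arrays of a group, which left 35777 probes; the brightest kept probe stood for a gene. limma 3.58.1 in R 4.3.3 was fitted to all 32 arrays and 23656 genes, with Benjamini-Hochberg adjustment; the labels name no covariate. Permutation tests used scipy 1.17.1.

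The members and lists were chosen with earlier results of these data known. Described in full were members with adjusted p under 0.05 and a difference of at least 1 in a diet comparison, members called for E171 or the interaction, and Timp1 to Timp4; from each pathway list, the 3 largest rises and 3 largest falls called in control mice. One gene that this rule names is not reported here. For a probe not well above background on any array of a group, the bound used, per array, the higher of its signal and the lowest signal among probes well above background. Each bound holds for the main processing only, and another background correction can give a smaller difference. Alternatives were quantile normalization, normexp background correction with an offset of 50, the authors' deposited log2 value table, whose normalization steps beyond its scale are not stated in the sources used here, no filter, a filter of 8 of 8 arrays, slide or replicate number as a block, the mean of kept probes and, chosen after seeing the data, leaving out replicate 8 of WD_E171. The pipeline was tested on simulated data.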

Additional observations from a re-analysis of the deposited data

Results flagged for a closer look

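In 3 of 72 groups of 8 mice checked for the genes described in full, a single mouse stood apart from the others by more than Dixon's 95% limit, where chance gives about 1 group in 20. In WD_CONT the lowest mouse for Mmp13 was at -3.79, with the next at -2.41. The lowest ND_CONT mouse for Mmp27 was at -6.93, with the next at -4.78 and the probe not well above background on that array. For Adamts4 the lowest ND_CONT mouse was at -3.46, with the next at -2.67.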

How the results depend on the processing

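Across 90 values of single genes and 9 alternatives to the main processing, 795 of 800 recomputed values kept their side of the threshold. Those that were called also kept their direction. Differences that were not called could change sign near 0, as for Adamts2 with E171 on the normal diet (-0.009 to 0.037). The 5 others arose with normexp background correction: Mmp24 in mice with E171 turned to a log2 difference of -0.0196 (adjusted p = 0.832), Mmp24 in controls, Adamts5 in controls and Adamts16 in mice with E171 lost their call, and Timp4 in controls gained one. The cause was not tested. Members called for diet numbered 21 to 24 in either pair. For E171 and the interaction 0 members were called under any of the 9.

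Of all genes, the 0.38% called for E171 on the Western diet became 0.723% with the replicate number as a block, 0.194% without replicate 8 of WD_E171 and 0.16% with no filter, which tests more dim genes. With no filter, 29% and 31.9% of genes were called for diet in controls and in mice with E171. The interaction gave 0.00267% of genes with no filter and 0.00423% with the replicate block, 1 gene each, against 0. Animals with the same number were not paired by the labels: their deviations from the group means correlated between -0.03 and 0.27 on average. With that block 23 and 24 members were called for diet. The number of arrays and the signal over background limit the precision for the dim probes.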
